A study of Drosophila melanogaster with 4 samples.

Results

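The genes described here encode the subunits of the Drosophila melanogaster proteasome. They were taken from the deposited count table by symbol, as every gene whose name begins with Prosalpha, Prosbeta, Rpn or Rpt followed by a digit. This gave 47 of the 16727 genes in the table: 32 standard subunits (14 of the core particle and 18 of the regulatory particle) and 15 paralogs whose names carry R or T after the subunit number. Total RNA of whole embryos aged 16 to 18 h was sequenced in 4 libraries. All embryos, of both groups, were homozygous for a deletion of the histone gene complex (deltaHisC), were kept at 25 °C and were selected by GFP. The control group (H3.2-WT, 2 libraries) carried the transgene 12xH3.2-WT, 12 copies of the histone genes with wild-type H3.2. The mutant group (H3.2-K4R, 2 libraries) carried 12xH3.2-K4R, in which lysine 4 of H3.2 is replaced by arginine. The comparison asks what this lysine contributes to gene expression.

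The proteasome degrades proteins tagged with ubiquitin. Its core particle is a barrel of stacked rings, with alpha subunits in the outer rings that gate the entry and beta subunits in the inner rings, of which beta1, beta2 and beta5 carry the peptidase sites. The regulatory particle caps the barrel: its base holds a ring of Rpt ATPases that unfold substrates and feed them into the core, and its lid holds the deubiquitinase Rpn11, which removes the tag. In fly testes, paralogs of several subunits are made in spermatogenesis and take the place of standard ones.

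Depth ran from 33882742 (control replicate 1) to 45509930 (control replicate 2) counted pairs, with the mutant libraries at 42661669 and 37055590. The amino acid change itself could not be checked, since counts per gene do not show it. All 23 genes named His3 had a count of 0 in every library, and pairs that map to several places were not counted. All 12 marker genes of differentiated embryonic tissues were well counted. Among them, the muscle myosin gene Mhc lay at 3493 to 4817 CPM (counts scaled to a common library size) and the neuronal gene elav at 357 to 554 CPM. Of the 12, 0 passed the edgeR test described next, and DESeq2 called 0. At an unadjusted edgeR p under 0.05, 1 was higher and 2 were lower, where 7.68% and 9.2% of all tested genes were. The lowest p were those of Hml, TwdlG and Mlc2, with edgeR adjusted p of 0.199, 0.229 and 0.249. Among the libraries, mutant replicate 2 stood apart for the proteasome genes, and the results it moves are given with and without it. Where 1 library of a group is left out, the lone one is assumed to vary like the pair of the other group, so a p from such a fit rests on the spread of that pair alone. Separate collections are not stated for the replicates, so a p-value measures only how these libraries spread, which may be technical. In RNA of whole embryos, fewer cells of a type and less RNA per cell cannot be told apart.

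Of the 31 standard proteasome subunit genes that could be tested, 0 passed in either direction. The test was the quasi-likelihood test of edgeR over 11562 genes, with Benjamini-Hochberg adjustment and a threshold of 0.05, and across all genes it called 0.588%. At an unadjusted p under 0.05, 2 subunits were lower and 0 higher, where 9.2% and 7.68% of all genes were. DESeq2, which called 3.58% of its tested genes higher and 3.07% lower, called 0 of the 31, and limma-voom also 0. The log2 fold changes of the mutants over the controls ran from -0.55 for Rpn11 to 0.28 for Prosalpha4, with a median of -0.08 beside -0.02 over all tested genes. Of the 31, 20 were negative and 11 positive, and 51.9% of all tested genes were negative. The 95% interval lay within 1 log2 unit of 0 for 24 of the 31, as it did for 52.6% of all tested genes, and for the other 7 it reached beyond that size.

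**Figure D1:**
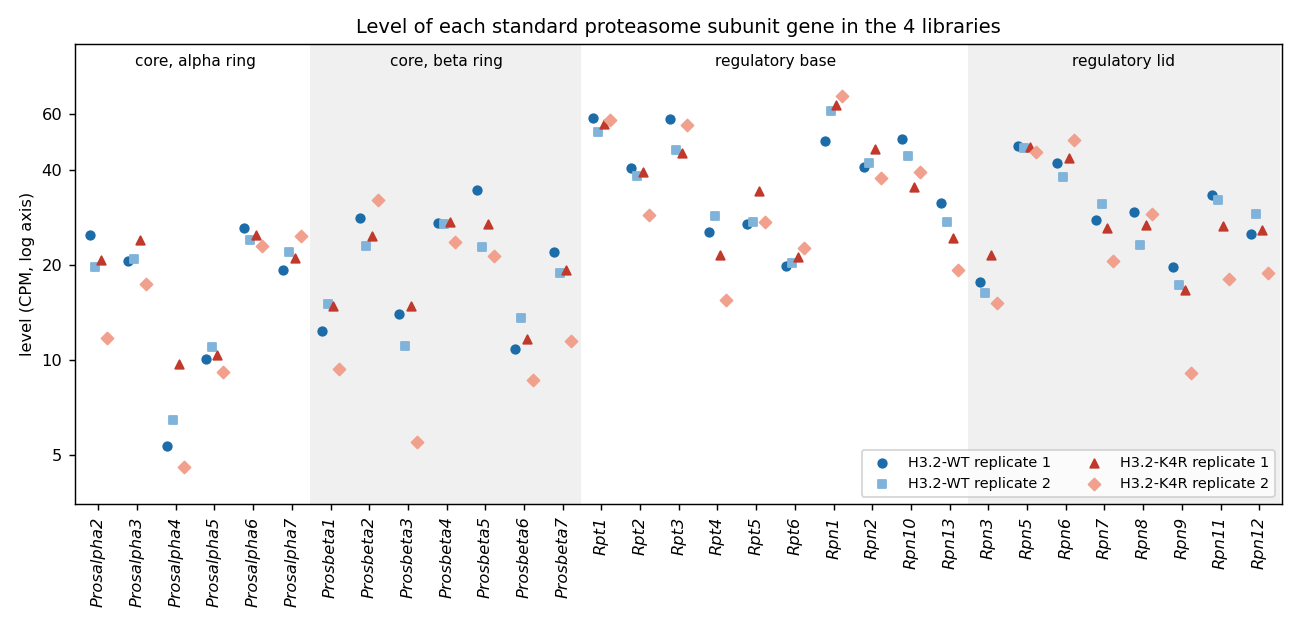
Level of each of the 31 tested standard subunit genes in CPM (log axis), one symbol per library, with the core alpha and beta rings, the regulatory base and the lid in separate bands. H3.2-K4R replicate 2 is the lowest library for 21 of the 31 genes, and Prosalpha4 is the gene with the lowest levels.

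In the alpha ring, 6 genes were tested, with a median log2 fold change of -0.04, and of 0.01 without mutant replicate 2. Prosalpha6 (2L, 10221351 to 10222546, coordinates of dm6 throughout) lay at 26.1 and 24.0 CPM in the control libraries and at 24.8 and 23.0 in the mutant libraries. Prosalpha3, whose amino-terminal tail forms much of the gate in yeast, lay at 20.5 and 20.9 CPM against 23.9 and 17.3. In both genes the groups overlapped, and the log2 fold changes were -0.07 ± 0.17 (SE, n = 2 per group) and -0.01 ± 0.21. Prosalpha7 lay at 19.3 and 21.9 CPM against 20.9 and 24.6 (0.14 ± 0.19), and Prosalpha5 at 10.1 and 11.0 against 10.3 and 9.16 (-0.11 ± 0.24). These 4 genes had edgeR adjusted p of 0.752 or more. Prosalpha2 and Prosalpha4 were the least even members. Prosalpha2 lay at 24.9 and 19.7 CPM in the controls and at 20.6 and 11.8 in the mutants, so that mutant replicate 2 stood below the other 3 libraries (log2 fold change -0.46 ± 0.28, 95% interval -1.11 to 0.20). Without that library the log2 fold change of Prosalpha2 was -0.11. Prosalpha4 (X, 16276270 to 16277587) lay at 5.34 and 6.42 CPM against 9.67 and 4.59, the mutant libraries being the highest and the lowest of the 4 (0.28 ± 0.39, -0.64 to 1.19). Without mutant replicate 2 the log2 fold change of Prosalpha4 was 0.72 (edgeR adjusted p = 0.383), and that of Prosalpha3 0.21.

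In the beta ring, 6 of 7 fold changes were negative and 0 genes passed, with a median of -0.24. Without mutant replicate 2, 4 of 7 were negative and the median was -0.04. The 3 catalytic subunits did not share a direction. Prosbeta1, which carries the caspase-like site, lay at 12.4 and 15 CPM against 14.8 and 9.38 (log2 fold change -0.18 ± 0.27, and 0.11 without mutant replicate 2). Prosbeta2, with the trypsin-like site, lay at 28.1 and 22.9 CPM against 24.8 and 32.1 (0.16 ± 0.20), and in this gene mutant replicate 2 was the highest library. Prosbeta5, with the chymotrypsin-like site, lay at 34.4 and 22.8 CPM against 27.0 and 21.3 (-0.24 ± 0.24), and its control libraries were farther apart than the group means. Of the structural subunits, Prosbeta4 was even at 27.1, 26.9, 27.3 and 23.7 CPM in control replicates 1 and 2 and mutant replicates 1 and 2. Prosbeta6 (-0.27 ± 0.26) and Prosbeta7 (-0.41 ± 0.27) had mutant replicate 1 between the control libraries and replicate 2 below them. Without replicate 2 their log2 fold changes were -0.07 and -0.08. Prosbeta3 (3R, 9005313 to 9006226) had the widest interval of the 31, -1.28 to 0.68. It lay at 14.0 and 11.1 CPM in the controls, at 14.8 in mutant replicate 1 and at 5.48 in replicate 2, which stood below the other 3 libraries. Its log2 fold change was -1.19 without mutant replicate 1 (edgeR adjusted p = 0.0423, with 1 mutant library and the spread of the controls) and 0.24 without replicate 2. In 0 of the 13 tested core genes were the groups apart, that is, with both mutant libraries on one side of both control libraries, where 51% of all tested genes were apart.

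In the base of the regulatory particle, 5 of 10 fold changes were negative and 5 positive, with a median of -0.01. The 6 ATPase genes of the ring had a median of -0.01 as well, and 3 of 6 were negative. Rpt1 lay at 58.4 and 52.4 CPM in the controls and at 55.6 and 57.5 in the mutants, and Rpt3 at 57.7 and 46.1 against 45.3 and 55.3, both with overlapping groups. Rpt2 (-0.21 ± 0.20, and -0.0005 without mutant replicate 2), Rpt5 (0.19 ± 0.18) and Rpt6 (0.13 ± 0.17) had edgeR adjusted p of 0.645 or more. Rpt6 was slightly higher in both mutant libraries (21.1 and 22.5 against 19.7 and 20.2 CPM), and Rpt5 was too, but only by the second decimal (27.29 CPM in control replicate 2 and 27.31 in mutant replicate 2). Rpt4 (X, 6289470 to 6291245) had the lowest fold change of the ATPase genes. It lay at 25.5 and 28.5 CPM in the controls and at 21.5 and 15.5 in the mutants. Both mutant libraries were below both control libraries, with a log2 fold change of -0.54 ± 0.21 (95% interval -1.03 to -0.05), an unadjusted edgeR p of 0.034 and an adjusted p of 0.254. It was -0.32 without mutant replicate 2 (edgeR adjusted p = 0.543) and -0.80 without mutant replicate 1 (adjusted p = 0.0562). Whether it differs from the other ATPase genes was not tested.

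Of the large base subunits, Rpn1 (3L, 19915051 to 19918160), a docking site for ubiquitin and shuttle factors, lay at 49.4 and 61.2 CPM in the controls and at 63.9 and 68.3 in the mutants (0.26 ± 0.17). Rpn2, a scaffold of the base, lay at 40.7 and 42.0 CPM against 46.5 and 37.5 (0.02 ± 0.17). The other ubiquitin receptors of the base had lower values in both mutant libraries. Rpn10 lay at 49.9 and 44.1 CPM against 35.2 and 39.2 (-0.34 ± 0.17, interval -0.72 to 0.05), and Rpn13 at 31.3 and 27.4 against 24.3 and 19.3 (-0.43 ± 0.19, -0.87 to 0.01). Neither passed, with edgeR adjusted p of 0.353 and 0.307. In the 3 receptor genes the groups did not overlap, with Rpn1 on the higher side and Rpn10 and Rpn13 on the lower. Of all tested genes, 51% were apart in this way.

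In the lid, 5 of 8 fold changes were negative, with a median of -0.15, and of -0.03 without mutant replicate 2. Rpn11 and Rpn8 form its enzymatic pair, and Rpn3, Rpn5, Rpn6, Rpn7, Rpn9 and Rpn12 are scaffold subunits that share the PCI domain. Rpn11 (2L, 5058404 to 5059790) had the lowest fold change of all subunits. It lay at 33.2 and 32.0 CPM in the controls, at 26.5 in mutant replicate 1 and at 18.0 in replicate 2 (-0.55 ± 0.22, 95% interval -1.05 to -0.05), with an unadjusted edgeR p of 0.0356 and an adjusted p of 0.259. Both mutant libraries were below the control libraries, which differed little. With the replicate number as a block, which called 6.56% of all genes lower, Rpn11 passed (-0.58, edgeR adjusted p = 0.0361), although the numbers are not known to pair libraries. The log2 fold change was -0.86 without mutant replicate 1 (adjusted p = 0.0395) and -0.30 without replicate 2. Rpn9 lay at 19.7 and 17.2 CPM against 16.6 and 9.08 (-0.52 ± 0.29), and without mutant replicate 1 its log2 fold change was -1.03 (edgeR adjusted p = 0.0339), and -0.15 without replicate 2. Rpn7 (-0.34 ± 0.19) also had both mutant libraries below the control ones, while Rpn12 (-0.27 ± 0.21) overlapped. Without mutant replicate 2 their log2 fold changes were -0.18 and -0.06. Rpn5 was among the most even genes of the complex, at 47.6, 46.99, 47.3 and 45.5 CPM over the 4 libraries. Rpn6, a clamp between the core and the regulatory particle, lay at 41.8 and 37.9 CPM against 43.6 and 49.8 (0.23 ± 0.17), higher in both mutant libraries. Rpn3 (0.11 ± 0.22, and 0.34 without mutant replicate 2) and Rpn8 (0.08 ± 0.19), the partner of Rpn11, overlapped. Over both parts of the regulatory particle, 6 of 18 genes were lower and 4 higher without overlap, beside 27.5% and 23.6% of all tested genes.

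**Figure D2:**
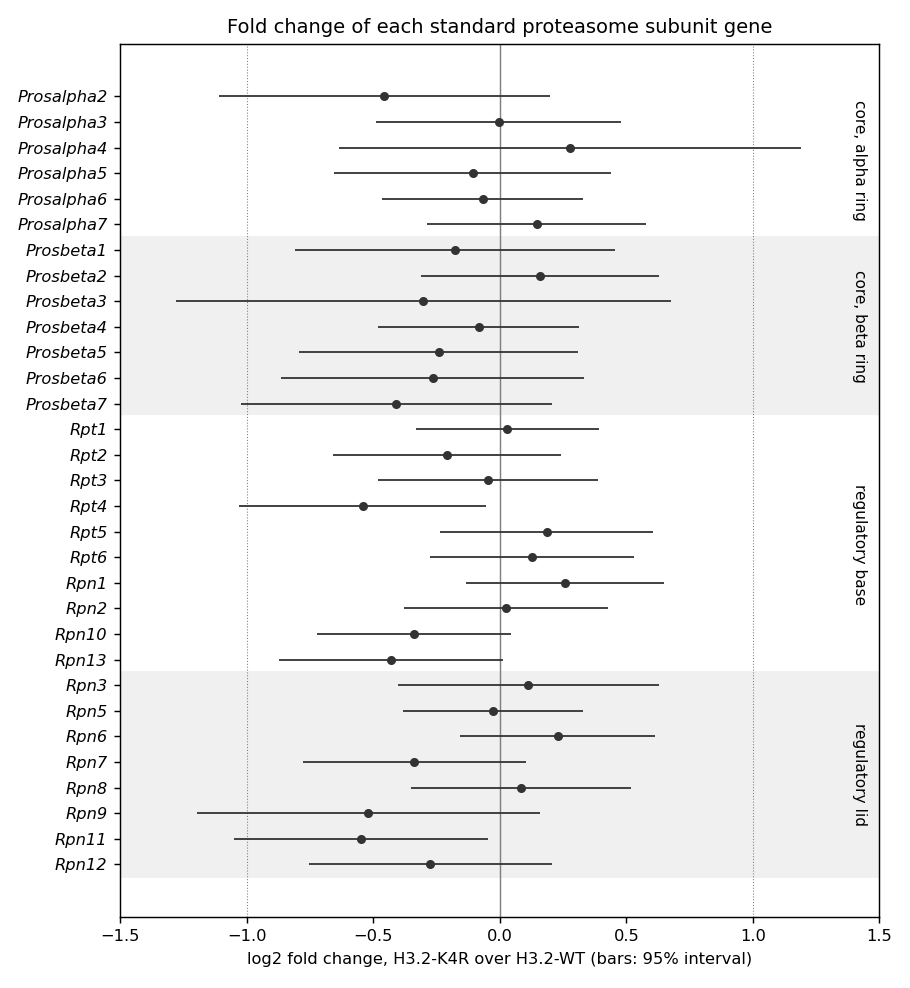
Log2 fold change, mutant (H3.2-K4R) over control (H3.2-WT), for each tested standard subunit gene, with its 95% interval, from edgeR over n = 2 libraries per group. Dotted lines mark 1 log2 unit on either side of 0. The intervals of Rpt4 and Rpn11 leave out 0 before adjustment, and 0 genes pass after adjustment over all genes.

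The mutant libraries differed from each other in the 31 genes by a median absolute log2 difference of 0.34, and the control libraries by 0.18. Over all tested genes these medians were 0.31 and 0.23. The 4 pairs taken across groups gave 0.15 to 0.33. Within both groups the differences exceeded counting noise: chi-square divided by its degrees of freedom was 13.4 for the controls and 36.2 for the mutants. Mutant replicate 2 was the lowest library for 21 of the 31 genes, for 11 of the 13 core genes, and for 4055 of all 11562 tested genes. Leaving it out moved 12 of the 31 log2 fold changes by more than their SE. Relative to each gene's mean over the 4 libraries, the median core gene was at 0.05 and 0.04 log2 units in control replicates 1 and 2, at 0.08 in mutant replicate 1 and at -0.28 in replicate 2. For the regulatory particle the medians were 0.07, 0.02, 0.01 and -0.12 in the same order. The summed level of the 31 genes was 897 and 856 CPM in the controls and 871 and 779 CPM in the mutants. Without mutant replicate 2 the median log2 fold change of the 31 was -0.0005, and without mutant replicate 1 it was -0.26, with Prosbeta3, Rpn9 and Rpn11 called lower, beside 4.91% of genes called lower in that fit. Those calls set 1 mutant library against 2 controls, and their spread is that of the controls.

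For other abundant complexes the values stand here beside those of the proteasome, and no test of these lists against each other was made. The 8 genes of the cytosolic chaperonin CCT, which folds actin and tubulin, had a median log2 fold change of -0.25 with 0 past the threshold by edgeR or DESeq2 and 0 at an unadjusted p under 0.05, and Tcp-1eta (-0.29 ± 0.16), CG5525, now named CCT4 (-0.34 ± 0.21, and -0.07 without mutant replicate 2), and Cct5 (-0.23 ± 0.15) had the lowest p. Their median deviations were 0.09, 0.12, 0.06 and -0.27 log2 units, close to the median pattern of the core. In 4 of the 8 CCT genes both mutant libraries were below both control libraries, against 0 of the 13 core genes and 27.5% of all tested genes. The 87 tested genes picked by the symbols of cytosolic ribosomal proteins, RpLP0-like and RpL24-like included, had a median fold change of -0.62. Of these 87, 85 were negative, where 51.9% of all tested genes were. There, mutant replicate 1 was also below both control libraries, with median deviations of 0.42 and 0.26 in the controls and -0.12 and -0.52 in the mutants. By edgeR 0 of the 87 passed, with 63 lower at an unadjusted p under 0.05, where 9.2% of all tested genes were. DESeq2 called 43 lower and gave no adjusted p for 2, beside 3.07% of its tested genes called lower. The lowest edgeR adjusted p were those of RpS5b (0.076), RpL39 (0.0812) and RpL10Ab (0.0931).

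**Figure D3:**
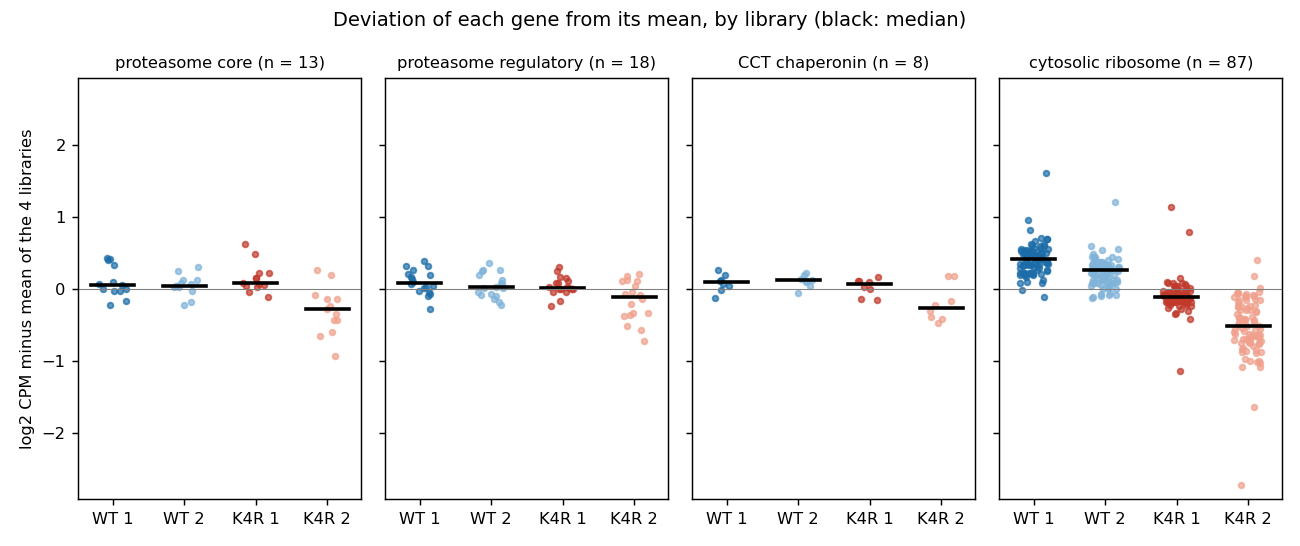
Log2 CPM of each gene minus its mean over the 4 libraries, for genes of the proteasome core, the regulatory particle, the CCT chaperonin and the cytosolic ribosome. Each point is a gene and black bars are medians. The proteasome medians of H3.2-K4R replicate 1 are near those of H3.2-WT, and only the ribosomal protein medians of both H3.2-K4R libraries lie below 0.

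Fold changes also moved with the length of the transcripts. The core genes were short, with exon lengths of 815 to 1215 bases, and those of the regulatory particle ran from 995 to 3412. At a boundary of 1400 bases, near the median of 1393 and chosen after the values were seen, 13 of the 16 shorter genes had negative fold changes (median -0.21), and 7 of the 15 longer ones (median 0.02). All tested genes split in the same direction, with medians of -0.15 below 1400 bases and 0.02 above. Across the 18 genes of the regulatory particle, Spearman's rho between fold change and exon length was 0.482, across the 13 core genes it was 0.280 and across all tested genes 0.178. These values describe genes that share libraries, so no p is given. With the length trend of each library removed, the median log2 fold change of the 31 was 0.08, with 14 negative. The median of the core turned from -0.11 to 0.08 in that fit. There, the fold change of Rpt4 was -0.37, that of Rpn11 -0.36 and that of Rpn10 -0.15. The part that transcript length has in the lower values of the core was not tested beyond this. The tested ribosomal protein genes had a median exon length of 903 bases, and the part of length in their lower values was not tested.

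**Figure D4:**
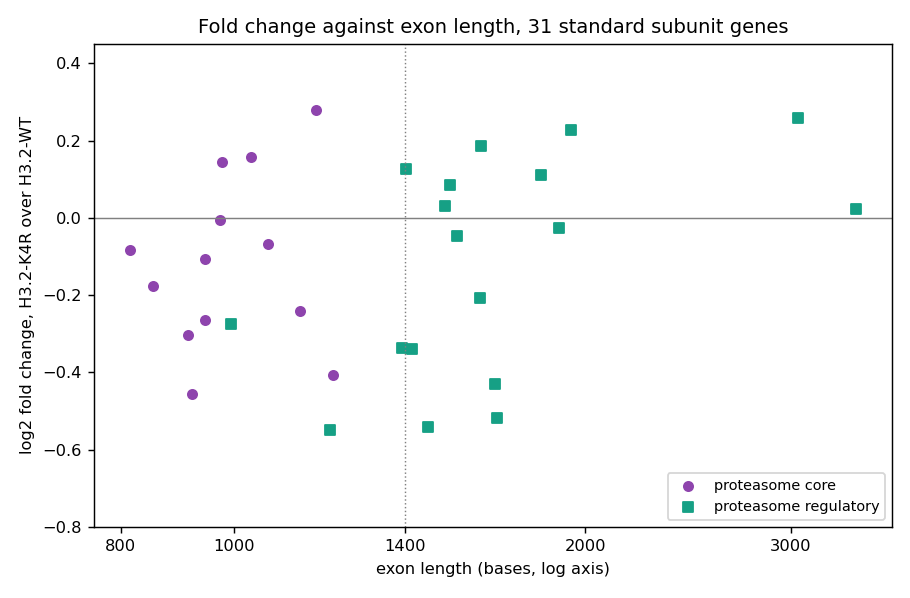
Log2 fold change, mutant (H3.2-K4R) over control (H3.2-WT), against exon length (bases, log axis) for the 31 tested standard subunit genes, with the boundary of 1400 bases dotted. Of 16 genes below it 13 are negative, and of 15 above it 7 are.

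Subunits differed in RNA level per length of exon. Divided by exon length, the mean level of the 31 genes ran from 5.53 CPM per kb of exon for Prosalpha4 to 37.0 for Rpt1, a ratio of 6.68, with a median of 19.97. Next to Rpt1 stood Rpt3 at 32.9, Prosbeta4 at 32.2 and Rpn10 at 29.6 CPM per kb. At the low end, above Prosalpha4, were Rpn9 at 9.32, Rpn3 at 9.61 and Prosalpha5 at 10.7 CPM per kb. The coefficient of variation across genes was 40% in the core and 37% in the regulatory particle, and the medians of both were close, at 20.9 and 19.5 CPM per kb. In single libraries the median core gene stood at 19.7 and 19.98 CPM per kb in the controls, 21.4 in mutant replicate 1 and 12.8 in replicate 2, and the median regulatory gene at 19.6, 19.8, 21.0 and 17.2. The 8 CCT genes had a higher median of 47.6 CPM per kb, and the 8 genes of the COP9 signalosome, a relative of the lid, a lower one of 7.82.

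Prosalpha1 was the only standard subunit that could not be measured. Its count was 0 in all 4 libraries, as was that of CG30382, which the RefSeq gene table names Prosalpha1R. In the count table both entries list exons at 2 neighbouring places of 2R (7827303 to 7831788 for Prosalpha1), and 98.25% of the exon bases of Prosalpha1 and 100% of those of CG30382 are shared by the other gene on the same strand. Pairs that fell on more than 1 gene were not counted, so the value of 0 carries no information on the level of this alpha subunit.

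The 15 paralogs were counted at a small share of the standard subunits. Together they held 387 counts over the 4 libraries, beside 135562 for the standard genes. Of the 15, 5 (Prosalpha3T, Prosalpha4T1, Prosalpha6T, Prosbeta4R2 and Prosbeta5R2) had a count of 0 throughout, as had 2858 of the 16727 genes in the table. A count of 0 allows up to 3 counts, which is 0.0647 to 0.088 CPM in these libraries, a limit that covers counting error only. A further 5 paralogs had 1 to 9 counts in a single library: Prosbeta4R1 had 4 and Prosbeta5R1 had 2 in control replicate 2, while Prosbeta2R1 had 9, Prosalpha4T2 had 7 and Rpn12R had 1 in mutant replicate 1. The remaining 5 are Rpn13R, Rpt3R, Prosbeta2R2, Rpt4R and Rpt6R. Rpn13R (X, 5131898 to 5132985) was the highest, at 69 and 27 counts in the controls and 64 and 22 in the mutants, or 1.08 CPM per kb in the mean, below the lowest standard subunit.

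Of these paralogs 3 (Rpn13R, Rpt3R and Prosbeta2R2) passed the filter on low counts and 0 were called by edgeR. DESeq2 gave an adjusted p for only 1 of them and did not call it. Prosbeta2R2 passed the filter through its control libraries alone, so no p is given for it. Prosbeta2R2 (3R, 5217751 to 5219528) had 36 and 16 counts in the controls and 2 and 0 in the mutants. The ratio of the summed levels was 25.5, higher in the controls, which themselves lay at 1.06 and 0.345 CPM. This ratio leaves out the spread between libraries. Rpt3R had 10 and 12 counts in the controls, 58 in mutant replicate 1 and 0 in replicate 2, so the mutant libraries were the highest and the lowest. Rpt4R had 2, 3, 4 and 20 counts in control replicates 1 and 2 and mutant replicates 1 and 2, too few to be tested. Its ratio of the mutants over the controls was 4.90 and rested on mutant replicate 2. Rpt6R had 5, 7, 7 and 0. In mutant replicate 2, 13 of the 15 paralogs were at 0, against 7 to 10 in the other libraries. Of 27 genes listed as testis markers, 25 were at 0 in mutant replicate 2 and 17 to 21 in the others. Among the 27, 16 were at 0 in all 4, beside 2858 of the 16727 genes in the table. Genes at 0 in single libraries were not counted over the whole table, so whether the paralogs or markers stand out in mutant replicate 2 was not tested. The summed level of the markers was 12.5 and 4.94 CPM in the controls and 8 and 5.15 CPM in the mutants. Of these sums, the gene twe alone held 7.51 and 0.582 CPM in the controls and 2.75 and 2.38 CPM in the mutants. The genes dj, ocn, Mst84Da and Mst35Ba were among the 16 at 0 throughout. Others were counted: mia had 36, 52, 53 and 0 counts in control replicates 1 and 2 and mutant replicates 1 and 2. In the same order, betaTub85D had 35, 50, 42 and 0, and S-Lap1 had 26, 9, 21 and 0. Of the 5 markers that reached the test, 0 passed and 0 had an unadjusted edgeR p under 0.05. DESeq2 gave no adjusted p for 3 of the 5 and called 0 of the others, and the lowest p were those of twe, betaTub85D and topi (adjusted p of 0.778 to 0.821). The part of testis cells in the paralog counts was not tested.

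**Figure D5:**
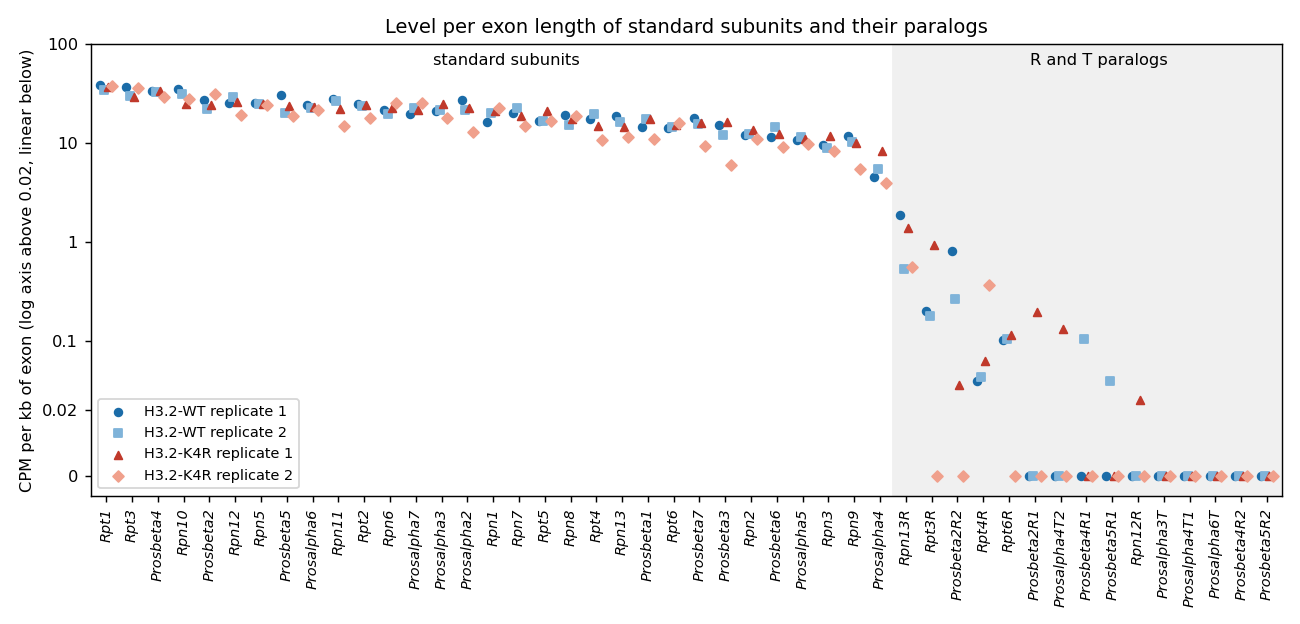
Level of the 31 tested standard subunits and the 15 paralogs in CPM per kb of exon (log axis above 0.02, linear below), one symbol per library. The standard genes lie above the paralogs, and 5 paralogs are at 0 in all 4 libraries.

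Genes that build, open or assist the proteasome gave 0 calls by edgeR among 7 and 0 by DESeq2, which gave ntc no adjusted p. REG was higher and PI31 lower at an unadjusted edgeR p under 0.05, where 7.68% and 9.2% of all tested genes were. Pomp, the chaperone that matures the core, lay at 29.8 and 28.5 CPM in the controls and at 28.0 and 33.1 in the mutants (0.07 ± 0.17). REG, the nuclear activator of the core known as PA28 gamma, lay at 111 and 107 CPM against 123 and 202, the last being mutant replicate 2. Its log2 fold change was 0.58 ± 0.23 with an edgeR adjusted p of 0.253, 0.18 without mutant replicate 2 and 0.89 without replicate 1 (adjusted p = 0.0121). PI31, an adaptor that moves proteasomes in neurons, lay at 23.4 and 21.3 CPM against 16.9 and 12.1 (-0.62 ± 0.22, edgeR adjusted p = 0.224). The log2 fold change of PI31 was -0.88 without mutant replicate 1 (adjusted p = 0.0445) and -0.40 without replicate 2 (adjusted p = 0.456). Sem1, the small subunit of the lid that the symbol rule does not reach, lay at 47.04 and 31.6 CPM against 29.4 and 26.7 (-0.49 ± 0.22). The deubiquitinases CG5384, now named Usp14, and Uch-L5 had 0.21 ± 0.18 and -0.34 ± 0.30, and ntc, a factor of sperm individualisation that binds PI31, had 35, 18, 11 and 28 counts, with 40.65% of its exon bases shared with CG32264.

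The transcription factor gene cnc is the fly homologue of the mammalian Nrf factors that induce proteasome genes when proteolysis falls short. It was higher in both mutant libraries, as were 23.6% of all tested genes. The count covers the whole gene and does not tell its transcripts apart. The gene lay at 179 and 163 CPM in the controls and at 253 and 219 in the mutants (0.46 ± 0.14). It did not pass by edgeR (adjusted p = 0.191). DESeq2, which called 3.58% of its tested genes higher, called it (0.49, adjusted p = 0.0326). With the length trend removed its log2 fold change was 0.27, its exons summing to 9178 bases. Among the 5 genes of this list, 0 passed by edgeR and 1, cnc, by DESeq2. Only cnc was higher at an unadjusted edgeR p under 0.05, where 7.68% of all tested genes were. The partner of cnc, maf-S, had -0.26 ± 0.18, and its repressor Keap1 0.35 ± 0.32. The genes rngo and Pngl, whose homologues process Nrf1 in mammals, had 0.35 ± 0.22 and 0.01 ± 0.18.

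Upstream of the proteasome, 0 of 11 genes for ubiquitin, its activation and its delivery passed by edgeR or DESeq2, and 0 had an unadjusted p under 0.05, with a median log2 fold change of 0.09. The polyubiquitin gene Ubi-p63E lay at 121 and 149 CPM in the controls and at 111 and 238 in the mutants, with mutant replicate 2 far above replicate 1. Its log2 fold change was 0.37 ± 0.31, 0.81 without mutant replicate 1 (edgeR adjusted p = 0.0255) and -0.28 without replicate 2. Ubi-p5E lay at 131 and 127 against 113 and 128. Both genes consist of ubiquitin repeats, so pairs that map to several places were not counted and their levels are uncertain. The ubiquitin fusion genes RpL40 and RpS27A had -0.25 ± 0.16 and -0.20 ± 0.14. Uba1, the activating enzyme, had 0.09 ± 0.15, and TER94, the segregase that extracts substrates, 0.23 ± 0.16. The lowest p besides RpL40 were those of Ufd1-like, a cofactor of TER94 (0.64 ± 0.31) and of the shuttle gene Rad23 (0.36 ± 0.18). Of 9 tested genes for ubiquitin-conjugating enzymes, 0 passed by edgeR or DESeq2 and 0 had an unadjusted p under 0.05, the lowest p being those of UbcD10 (0.37 ± 0.19), ben (-0.30 ± 0.18) and UbcD4 (-0.45 ± 0.27). UbcD4 rested on 1 library, with a log2 fold change of -0.08 without mutant replicate 1 and -0.96 without replicate 2. Likewise, 0 of 8 COP9 signalosome genes passed by edgeR or DESeq2 and 0 had an unadjusted p under 0.05, with CSN7 at -0.39 ± 0.24, CSN3 at 0.31 ± 0.24 and alien, the CSN2 gene, at 0.25 ± 0.21.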

How the data were processed

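The members and gene lists were chosen with earlier results of these data known. The authors deposited counts, each the number of read pairs assigned to a gene's exons on 1 strand by featureCounts 2.0.6 per the file headers. Multi-mapping pairs and pairs over several genes were left out, per the file headers. Build dm6, Subread 2.0.6, SAMtools 1.9 and STAR 2.7.7a come from the submitters' processing notes. The table's HWT columns were taken as H3.2-WT by stage and replicate number. All 16727 genes were fitted with edgeR 4.0.16 (R 4.3.3): filterByExpr (minimum count 10, total 15) left 11562 genes, TMM normalisation and the quasi-likelihood test followed without a block, and Benjamini-Hochberg adjustment covered all tested genes. SE is the log2 fold change over the root of F. CPM use TMM library sizes, and log2 CPM a prior count of 2. DESeq2 1.42.0, limma-voom (3.58.1), other normalisations, no filter, a replicate block, a lowess length trend (span 0.3) removed per library, and leaving out each library were alternatives. An exact permutation test of 2 against 2 libraries cannot go below p = 0.333. The fit was tested on simulated data. Their spread followed a smooth trend with level, with no library set apart and no length trend, so the calls need not hold for these libraries. The fit called 2 of 49 genes with a true log2 fold change of 0.5 in size, and 17 of 49 at 1. Of 11043 unchanged genes it called 2. Every subunit is named. Of each related list the 3 genes with the lowest p and chosen regulators are named. The symbol Ecm29 was not matched. No sequence is printed.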

Additional observations from a re-analysis of the deposited data

How the results depend on the processing

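By edgeR 0 of the 31 tested standard subunits passed, and this held with DESeq2, limma-voom, RLE and upper-quartile factors, no filter and the length trend removed. These results rest on 2 libraries per group. Genes called higher and lower over the whole table numbered 48 and 20 by edgeR, 358 and 307 by DESeq2, 101 and 72 by limma-voom, 452 and 527 without a filter, 608 and 758 with the replicate block, 76 and 16 with the length trend removed, 26 and 6 without control replicate 1, 1 and 0 without control replicate 2, 251 and 587 without mutant replicate 1, and 67 and 16 without mutant replicate 2. With the replicate number as a block, 1 subunit (Rpn11, adjusted p = 0.0361) was called. The numbers are not known to pair libraries (correlation of same-numbered deviations over genes 0.106, with only 2 pairs). With the length trend removed, the median log2 fold change of the standard subunits was 0.0758, that of the core 0.0758 and that of the regulatory particle 0.0548. With 1 library left out, the count of called subunits ran from 0 to 3, the negative fold changes from 17 to 22, the median of the standard subunits from -0.26 to -0.0005, of the core from -0.36 to -0.013 and of the regulatory particle from -0.16 to 0.0032. The 3 calls came without mutant replicate 1, where the lone mutant library is assumed to vary like the controls. The cause of these moves was not tested. Among related genes, calls also arose with the block for REG (0.54), PI31 (-0.64), cnc (0.46) and UbcD4 (-0.52, but -0.08 without mutant replicate 1), without a filter for REG (0.59), and without mutant replicate 1 for Ubi-p63E (0.81, but -0.28 without replicate 2) and CG5525 (-0.67, but -0.07 without replicate 2). Counting error is small for the standard subunits, which had at least 166 counts in every library, and limits the paralogs.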
